A study of Mus musculus with 4 samples.

Results

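Control GC-1 cells were described here from the 2 libraries made after transfection with the MYC plasmid, 1 collected at 24 h and 1 at 36 h. These are 2 of the 4 libraries of the series, and both other libraries came from cells given the MYC-TET1 plasmid (TET1 overexpression group). GC-1 is a mouse cell line that the labels call spermatogenic cells, and its control libraries are labelled untreated although the study's methods describe transfection of the MYC plasmid with a lipid reagent. No library of cells without plasmid was analysed, so the baseline below is that of transfected cells. Genes were ranked by the mean FPKM of the 2 MYC libraries (fragments per kilobase of transcript, scaled to the mapped fragments of the library, so a level per transcript length). The ranking covers the 21804 genes of the 55385 in the table whose transcript type includes protein_coding. With 1 library at each time there is no replicate, no test was made, and time and library cannot be told apart in any difference between them.

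Spermatogonia are the mitotic germ cells at the base of the seminiferous tubule. They carry RNA-binding proteins found in germ cells, such as DDX4 and DAZL, and the undifferentiated ones respond through the receptors GFRA1 and RET to GDNF, a growth factor made by Sertoli cells. Sertoli cells nurse the germ cells, Leydig cells make testosterone, peritubular myoid cells contract around the tubule, and fibroblasts secrete collagen matrix. A transcript level in a cell line says which of these programmes is being read out in culture, and in bulk RNA a low level in every cell cannot be told apart from a high level in few cells.

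The counts summed to 66797452 in the MYC 24 h library and 60611877 in the MYC 36 h library. A count of 0 therefore allows a level of up to that of 3 counts, or 0.0449 and 0.0495 CPM (counts scaled to a library total of 1e6). Genes with 0 counts are listed at an FPKM of 0.0001 and are called "at 0" below. Intervals are exact 95% Poisson intervals and cover counting error only. They are too narrow where a fragment was counted more than once, and 1101 genes had exactly 4 counts at 24 h while 287 had 3. Tet1, the gene carried by the other plasmid, had 61 and 59 counts in the MYC libraries and 49451 and 24467 in the MYC-TET1 libraries at 24 h and 36 h.

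Of the protein-coding genes, 10015 (45.9%) reached a mean FPKM of 1, 4383 reached 10 and 420 reached 100. With FPKM rescaled to TPM, so that each library sums to 1e6, 7500 reached 10 and 1435 reached 100. With protein_coding as the only transcript type of a gene, 1930, 890 and 125 genes reached 1, 10 and 100. The MYC 24 h library alone gave 9995, 4356 and 425 genes at these levels, and the MYC 36 h library gave 10003, 4388 and 425. Both libraries reached an FPKM of 1 for 9811 genes, which is 96.3% of those that did so in either. At the other end, 7262 genes (33.3%) were at 0 in both libraries. FPKM was concentrated in few genes. The 10 most abundant genes held 10.98% of all protein-coding FPKM, the 100 most abundant held 31.5% and the 500 most abundant held 53.7%. The 500 highest genes of each library had 465 genes in common. At the lower edge of the 500 the values ran on without a gap, with Dap at 86.83 and Dnaja2 at 86.78 just inside and Cyb5r3 at 86.74 and Rbm3 at 86.63 just outside.

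Transcripts of the mitochondrial genome led the list. It encodes 13 proteins, all of them subunits of the respiratory chain or of ATP synthase, and all 13 genes were among the 100 most abundant. Together they held 8.33% of protein-coding FPKM at 24 h and 9.53% at 36 h. Highest was mt-Co1, a subunit of cytochrome c oxidase, with FPKM of 5588 at 24 h and 6690 at 36 h. Its partner mt-Co2 stood at 3411 and 4494. The ATP synthase subunit mt-Atp6 stood at 4123 and 3162 on its own row, and with its near-identical row at 3470 and 4225 CPM, so that it was then higher at 36 h. The next ATP synthase subunit, mt-Atp8, had 3075 and 2357. Among subunits of complex I, mt-Nd1 had 1636 and 3236 and mt-Nd2 had 1006 and 1497. On their own rows the named mitochondrial genes did not share 1 direction, as mt-Atp6 and mt-Atp8 were higher at 24 h. By contrast mt-Co1, mt-Co2, mt-Co3, mt-Cytb, mt-Nd1 and mt-Nd2 were higher at 36 h. No near-identical row was found for mt-Atp8, but its own row was lower at 36 h together with that of mt-Atp6. Whether reads of mt-Atp8 were also counted elsewhere was not tested. Near-identical nuclear copies of these genes are described with Gapdh near the end.

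Among nuclear genes, each read on its own row, the highest was Lgals1 (chr15:78926725-78930465, GRCm38), which encodes the secreted lectin galectin-1. Its FPKM was 3436 at 24 h and 3585 at 36 h. Next came Eef1a1, the factor that brings aminoacyl-tRNA to the ribosome, at 3050 and 3095. The ferritin light chain Ftl1, which stores iron, had 2138 and 2045. The MHC class I light chain B2m had 1709 and 1617. The chaperone Hsp90ab1 had 1539 and 1617. The antiviral membrane protein Ifitm3 had 1559 and 1115, and the calcium-binding protein S100a11 had 1222 and 1280. The remaining genes among the 20 highest were mt-Co3, mt-Cytb, the ribosomal protein genes Rplp1, Rpl19, Rplp0 and Rpl8, and Gm10260, a ribosomal protein S18 copy. Rplp1 stood at 1937 and 1721 and Rpl19 at 1747 and 1808. Near-identical rows were not added in this ranking, and those of Rplp0 held FPKM of 2537 and 2418 beside its own 1418 and 1405. The nuclear genes of this group lay close together between the libraries except Ifitm3.

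**Figure D1:**
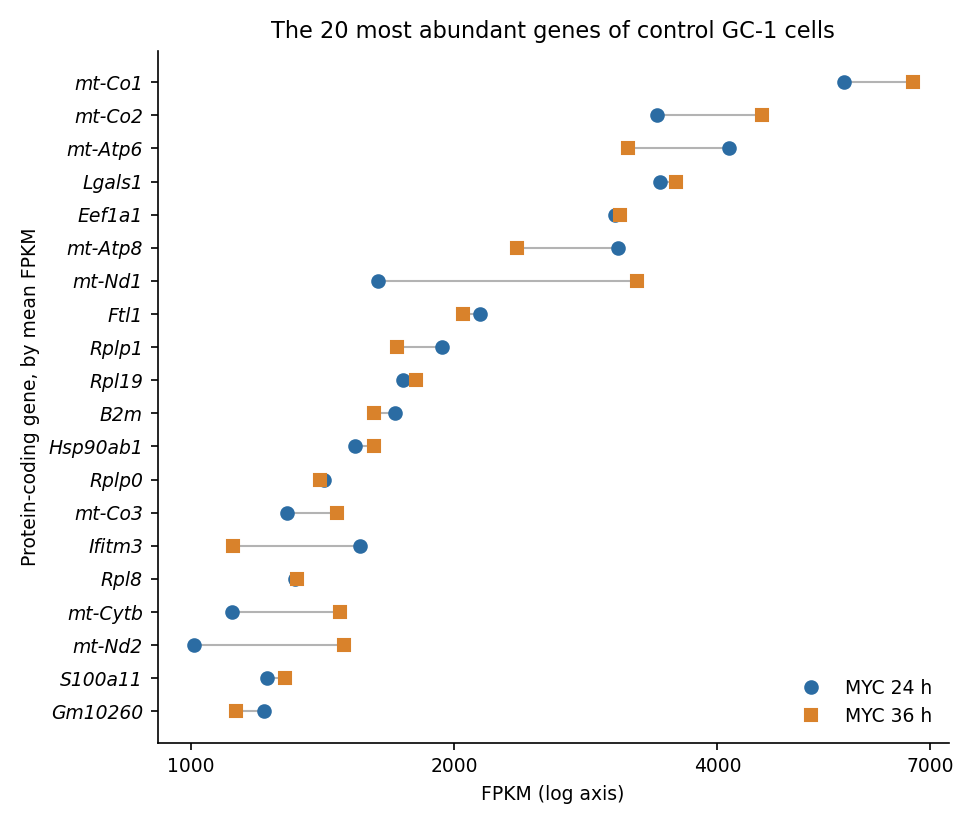
FPKM (log axis) of the 20 most abundant protein-coding genes in the MYC 24 h library (circles) and the MYC 36 h library (squares), joined by a grey line and ordered by their mean. Lgals1, Eef1a1 and Rpl8 have nearly the same value in both libraries, while mt-Nd1 runs from 1636 to 3236 and Ifitm3 from 1559 to 1115.

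Genes of protein synthesis were a large group among the 500 most abundant. For the list counts below, the 500 were taken from 21804 protein-coding genes, of which 45.9% reached FPKM 1. The lists were chosen with earlier results of these data known. The 83 cytosolic ribosomal protein genes together held 9.58% of FPKM at 24 h and 9.53% at 36 h, with a median level of 232 FPKM, and 64 of them were among the 500. Of 11 translation elongation and release genes, 10 reached FPKM 1 and 9 were among the 500. They included the translocase Eef2 (1025 and 1064), the hypusine-carrying factor Eif5a (649 and 662) and Eef1g (532 and 523). The paralog Eef1a2, the form of muscle and neurons, was at 0 in both libraries.

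All 16 glycolysis genes reached FPKM 1 and 8 were among the 500, with Pgk1 at 716 and 751, Ldha at 613 and 631, Pkm at 533 and 618 and Aldoa at 458 and 521. Lactate dehydrogenase was nearly all of the A form, since Ldhb stood at 6.67 and 5.799, and the sperm forms Ldhc and Pgk2 were at 0. Of 15 cytosolic chaperone genes, 13 were among the 500. After Hsp90ab1 the highest were Hspa8, the constitutive HSP70 (647 and 847), the cyclophilin Ppia (351 and 390) and the chaperonin Hspd1 (351 and 347). All 8 subunits of the CCT ring, which folds actin and tubulin, lay between 86.0 and 259 in mean FPKM. All 19 cytoskeleton genes exceeded FPKM 10. The tubulins Tuba1b (997 and 989) and Tubb5 (718 and 718), the actin Actg1 (604 and 757) and Tuba1a (551 and 636) were the 4 highest.

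All 20 genes of the secreted matrix list reached FPKM 1, against 45.9% of all protein-coding genes. After Lgals1 the highest were Sparc, a collagen-binding protein (455 and 444.2), and the metalloproteinase inhibitors Timp2 (224 and 243) and Timp1 (237 and 224). Basement membrane genes were present at moderate levels, with Col4a1 at 60.9 and 49.4 and Lamc1 at 27.1 and 26.3. Spp1, which encodes osteopontin and was named after its values were seen, stood at 556 and 768.

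The GO annotation of the deposited table gave the same picture by counts. All 500 genes carried a GO term, and they were set beside the 9972 annotated genes at mean FPKM of at least 1. The 10 most frequent terms were cytoplasm (56.2% of the 500 against 40.9% of the expressed genes), protein binding (46.4% against 38.3%), cytosol (43.6% against 26.0%), nucleus (42.8% against 39.8%), membrane (35.0% against 33.4%), nucleoplasm (21.6% against 23.1%), mitochondrion (21.0% against 13.5%), plasma membrane (21.0% against 16.6%), translation (17.4% against 2.59%) and integral component of membrane (16.6% against 20.2%). Most of these are broad locations. The specific term among them was translation, carried by 87 of the 500 genes and led by Eef1a1, Rpl19 and Rpl8. Terms that were less frequent among the 500, named after their values were seen, were metal ion binding (12.2% against 20.1%) and transferase activity (5.40% against 12.0%).

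KEGG pathways were annotated for 304 of the 500 genes and for 3852 of the expressed genes. Ribosome came highest with 18.4% against 2.70%. Parkinson disease (11.8% against 2.65%), Thermogenesis (11.5% against 4.18%), Oxidative phosphorylation (10.9% against 2.57%), Huntington disease (10.2% against 3.30%) and Alzheimer disease (8.55% against 2.99%) followed, and mt-Co1, mt-Co2 and mt-Atp6 led each of these 5. These pathways share genes of the respiratory chain. Human papillomavirus infection (6.58% against 5.30%), Protein processing in endoplasmic reticulum (6.25% against 3.61%), Non-alcoholic fatty liver disease (6.25% against 2.78%) and PI3K-Akt signaling pathway (5.59% against 4.83%) completed the 10 most frequent. Proteoglycans in cancer was tied with the last of these, at 5.59% against 3.53%. Further down the list the Proteasome pathway had 4.28% against 0.831% and Glycolysis / Gluconeogenesis had 3.29% against 1.04%. These shares are descriptions of annotation, and no enrichment test was made.

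**Figure D2:**
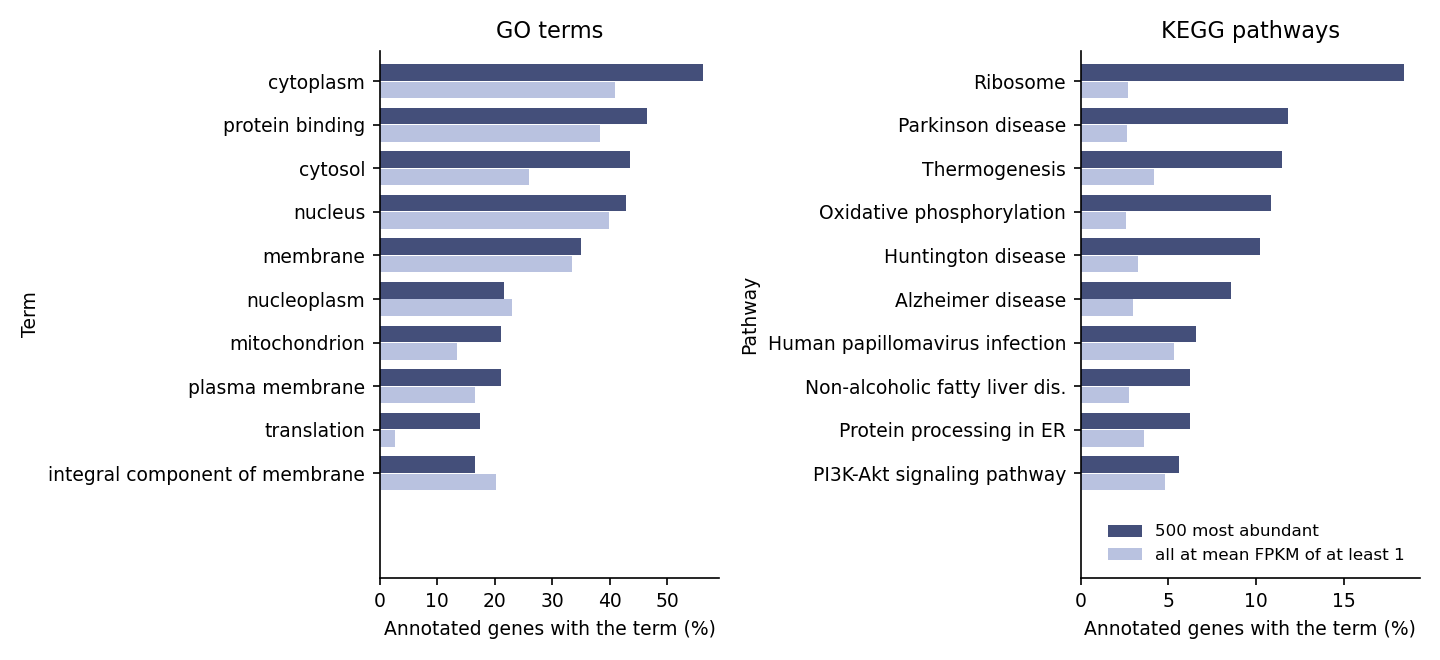
Share of annotated genes (in percent) that carry each of the 10 most frequent GO terms and KEGG pathways, for the 500 most abundant genes (dark bars) and for all protein-coding genes at mean FPKM of at least 1 (light bars), with ties put in order of name. Translation (17.4% against 2.59%) and Ribosome (18.4% against 2.70%) have the longest dark bar in relation to the light one.

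The 500 genes were also shorter. Their median coding length was 783.5 bases (from the GENCODE annotation of GRCm38), against 1350 among expressed genes. Without the ribosomal protein genes it was 891. Promoters were taken from RefSeq (GRCm38.p6) and searched over the 250 bases before the start on both strands, with 469 promoters for the 382 of the 500 symbols that matched. The letters TATAAA, the core of the TATA box, were found in 9.38% of them, in 6.11% of promoters of expressed genes and in 12.4% of all promoters. GGGCGG, a GC box bound by SP1, was found in 56.9%, 60.4% and 32.7%, and CCAAT, the letters read by NF-Y, in 36.7%, 36.2% and 33.9%. For these GC boxes and for CCAAT the shares lay close to those of all expressed genes, and for TATAAA the share lay between those of expressed genes and of all promoters.

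Germ cell markers were largely absent. Of 84 markers over 5 lists, 9 (10.7%) reached a mean FPKM of 1, against 45.9% of all protein-coding genes, and 48 were at 0 in both libraries. Of 25 defining markers 2 reached FPKM 1 and 17 were at 0. Those at 0 included the RNA-binding proteins Ddx4 and Dazl, the stem cell factors Zbtb16, Nanos2, Lin28a and Sall4, and Ret, the signalling receptor for GDNF. The differentiation regulators Stra8, Sohlh1 and Dmrt1, the piRNA factor Mael and the surface protein Tex101 were at 0 as well. Near-identical copies to which reads could be lost were searched for Ddx4, Dazl, Zbtb16 and Nanos2 and none was found.

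The defining markers above FPKM 1 were Etv5, a transcription factor downstream of GDNF (2.85 at 24 h and 3.19 at 36 h), and Uchl1, a ubiquitin hydrolase (11.1 and 10.5). Both are also made outside the germ line. Low but counted were Gfra1, the GDNF-binding receptor, with 149 counts (interval 126 to 175) at 24 h and 126 (105 to 150) at 36 h, and Id4, with 24 (15.4 to 35.7) and 85 (67.9 to 105). Kit, the receptor of differentiating spermatogonia, had 4 counts (1.09 to 10.2) and 18 (10.7 to 28.4). All values of Id4 and of Kit lie under an FPKM of 0.33, and their difference between the libraries was not tested. The other germ list members at mean FPKM of at least 10 were the tetraspanin Cd9 (99.3 and 107) and the cyclin Ccnd2 (24.6 and 20.4), which many tissues express. Bcl6b, a GDNF-responsive repressor, stood at 3.97 and 5.64 and the integrin Itga6 at 8.71 and 7.995.

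Genes of later germ cells were nearly silent. FPKM 1 was reached by 45.9% of all protein-coding genes. Of 16 meiotic markers 1 (6.25%) reached it, the recombination-site methyltransferase Prdm9 (1.63 and 0.870). Sycp1 and Dmc1 were at 0, Sycp3 had 0 and 7 counts, and Spo11, which cuts DNA in meiosis, had 15 and 12. Of 16 spermatid markers none reached FPKM 1, and 11 were at 0, among them the protamine Prm1, the transition protein Tnp1 and the acrosomal Acrv1. Of 18 genes shared by germ cell stages none reached FPKM 1 either, and Piwil2 had 0 and 23 counts. The labelled cell type is thus not borne out by its defining markers, and the cells are named below by line only.

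Of 24 Sertoli markers 10 (41.7%) reached FPKM 1, against 45.9% of all protein-coding genes, and 7 (29.2%) were at 0, against 33.3%. Transcription factors of Sertoli cells were present. Wt1 stood at 14.0 and 25.6, Gata4 at 7.55 and 8.31, and Sox9 at 2.16 and 2.32. Of the other defining markers, Fshr, the receptor for follicle-stimulating hormone, and the tight junction protein Cldn11 were at 0, the hormone Amh had 17 and 6 counts, and Rhox5 stood at 0.555 and 0.771. Beside Wt1, members at FPKM of at least 10 were Krt18 (785 and 812), clusterin Clu (75.9 and 110), the junction scaffold Tjp1 (24.1 and 25.1), transferrin Trf (13.1 and 14.7) and Gdnf (11.7 and 10.1). The inhibin subunit genes stood at 2.29 and 2.17 for Inhbb and at 1.09 and 0.937 for Inha. Gdnf was thus measured well above both of its receptors, Gfra1 and Ret.

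Of 16 Leydig markers 4 (25.0%) reached FPKM 1, against 45.9% of all protein-coding genes, and none of 6 defining ones did. The steroidogenic enzymes Cyp17a1 and Hsd3b1, the hormone Insl3 and the receptor Lhcgr were at 0, Cyp11a1 had 0 and 8 counts, and Star, which carries cholesterol into mitochondria, had 164 and 78. Tspo, an outer mitochondrial membrane protein, stood at 171 and 136. Of 15 peritubular markers 7 (46.7%) reached FPKM 1, against 45.9% of all protein-coding genes. Of the defining smooth muscle genes Acta2 and Des passed FPKM 1, with Acta2 at 3.94 and 3.27, Des at 2.09 and 2.58, Tagln at 0.266 and 0.438, Cnn1 at 0.180 and 0.122, and Myh11 at 4 and 8 counts. The members over 10 were Flna (92.4 and 106), Tpm1 (57.7 and 55.9), Tpm2 (47.7 and 52.2), Smtn (29.1 and 38.6) and Cald1 (18.0 and 23.3). These encode actin-binding proteins, and Smtn is known from contractile smooth muscle.

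Of these lists the fibroblast markers had the largest share present. Of 24 genes 19 (79.2%) reached FPKM 1, including all 6 defining ones, against 45.9% of all protein-coding genes. The intermediate filament gene Vim stood at 220 and 223. The collagen I chains differed, with Col1a1 at 209 and 218 and Col1a2 at 19.97 and 18.6. Decorin, Dcn, stood at 73.0 and 87.7, Col3a1 at 2.95 and 3.68 and the receptor Pdgfra at 1.99 and 2.31. Other members over 10 were the calcium-binding protein S100a4 (685 and 602), Sparc, the collagen cross-linking enzyme Lox (63.3 and 96.1), fibronectin Fn1 (34.4 and 47.5), Col6a1 (25.0 and 23.7) and Col5a2 (10.3 and 11.1). The list was not complete, since Thy1, Lum and Fap were at 0, Pdgfrb had 22 and 0 counts and Postn had 4 and 16.

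Among keratin genes, Krt19 (845 and 769) and Krt18 (785 and 812) ranked 26th and 27th of all protein-coding genes. Keratin filaments pair a type I with a type II keratin, and both of these are type I. The usual type II partner, Krt8, stood at 8.65 and 7.59, and Krt7 at 0.156 and 0.0843. Of 53 keratin genes listed, 7 reached FPKM 1, 4 reached 10 and 2 reached 100, and the other 2 over 10 were Krt14 (67.7 and 80.3) and Krt80 (13.7 and 12.9). Krt5, the type II partner of Krt14 in skin, was at 0. No near-identical copy was found for Krt18 or Krt19, and the 1 found for Krt8 held 4 and 0 counts. Of 11 epithelial markers 4 (36.4%) reached FPKM 1, against 45.9% of all protein-coding genes. E-cadherin Cdh1 had 19 and 36 counts and Epcam had 0 and 12. Outside the lists and chosen after their values were seen, mesothelin Msln stood at 157 and 167 and uroplakin Upk3b at 294 and 249, both known from mesothelium.

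Markers of other cells were mostly under FPKM 1, which 45.9% of all protein-coding genes reached. Of 11 macrophage markers 2 reached FPKM 1, Cd14 (19.6 and 21.5) and Cd68 (16.7 and 11.8), while Ptprc, Adgre1 and C1qa were at 0 and Csf1r had 8 and 7 counts. Of 10 endothelial markers 1 did, Flt1, and the defining Pecam1, Cdh5 and Kdr had mean FPKM between 0.0841 and 0.122. Of 10 pluripotency markers none did. Sox2 was at 0, Pou5f1 had 0 and 19 counts and Nanog had 21 and 23.

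**Figure D3:**
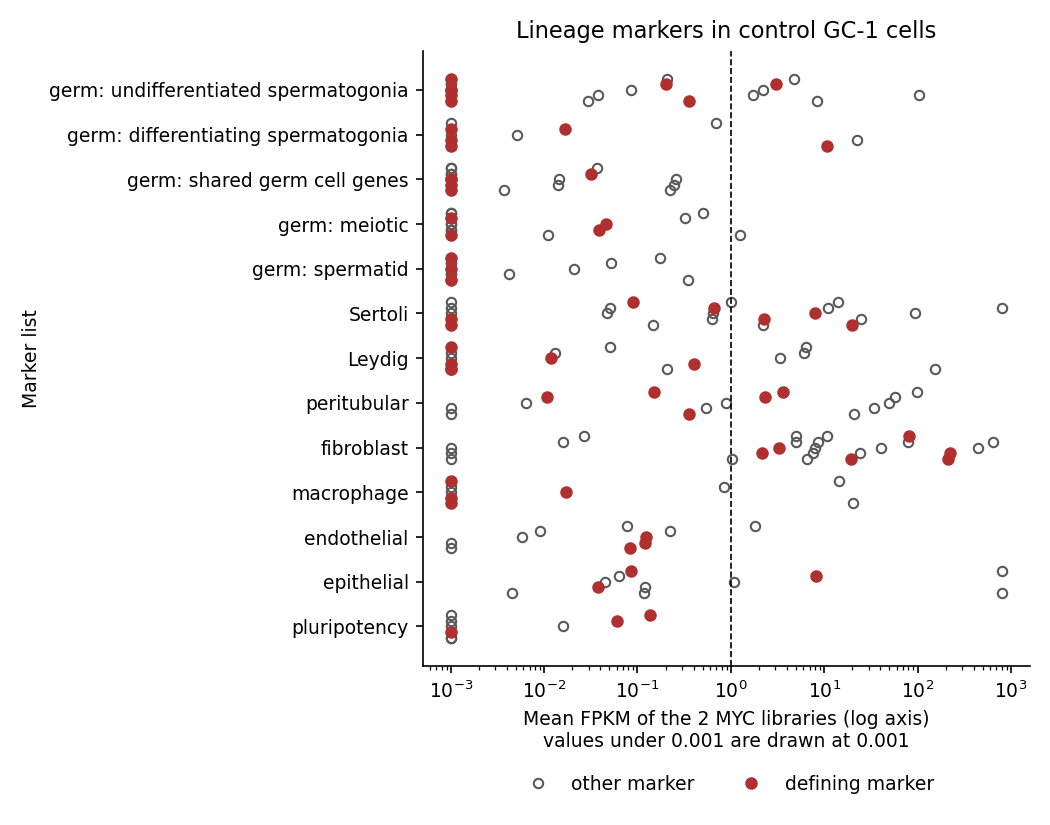
Mean FPKM of the 2 MYC libraries (log axis) for each gene of the 13 marker lists, with defining markers as filled circles and the dashed line at FPKM 1. Filled circles lie right of the line for 6 of 6 fibroblast markers and 2 of 25 germ cell markers, and most germ cell markers sit at the left edge.

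The cells read out a full division programme. All 17 genes of S phase and replication reached FPKM 1, against 45.9% of all protein-coding genes. Pcna, the sliding clamp of DNA polymerase, stood at 191 and 168, and the helicase subunits Mcm6 and Mcm5 at 113 and 110 and at 99.9 and 97.5. Rrm2, which makes deoxynucleotides, stood at 85.8 and 79.9. All 16 mitosis genes did so too, led by the kinases Aurka (112 and 128) and Plk1 (84.1 and 105), the topoisomerase Top2a (68.2 and 72.5) and the checkpoint protein Cdc20 (64.0 and 74.8). Inhibitors of division and p53 targets were present as well. Cdkn2a, whose locus encodes p16 and p19ARF, stood at 88.1 and 95.03, Trp53 at 67.9 and 76.1, Bax at 43.5 and 33.8 and Cdkn1a at 29.2 and 37.5. The lowest of these 14 genes, Cdkn1c, had 0 and 4 counts. The proto-oncogene Myc, named after its values were seen, stood at 52.5 and 51.7.

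Of 30 receptors of growth factors and hormones 15 (50%) reached FPKM 1, a share near the 45.9% of all protein-coding genes. The highest were the retinoic acid receptor Rarg (33.7 and 35.3), Fgfr1 (23.2 and 23.4), Tgfbr2 (19.5 and 19.4) and Met (11.4 and 6.42). Those at 0 included Ret, Fshr, Lhcgr and the oestrogen receptor Esr2. Of 17 ligands of the spermatogonial niche 6 (35.3%) reached FPKM 1, with Csf1 at 28.7 and 21.4, Vegfa at 22.9 and 24.6, Lif at 14.1 and 14.5 and Gdnf as above. At 0 were Fgf8, Fgf9, Wnt3a and Nodal.

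Genes of the Y chromosome were practically absent. None of 10 reached FPKM 1 and their counts summed to 4 at 24 h and 23 at 36 h. Sry, Kdm5d, Usp9y, Zfy1, Zfy2 and Rbmy were at 0 in both libraries, while Ddx3y had 4 and 4 counts. Of 19 imprinted genes 5 (26.3%) reached FPKM 1, against 45.9% of all protein-coding genes. These were Dcn (73.0 and 87.7), Impact (9.35 and 8.59), Grb10 (8.49 and 8.93), Igf2r (8.11 and 8.47) and Peg3. Peg3, a zinc finger gene read from the paternal allele, stood at 7.28 in the MYC 24 h library and 0.930 in the MYC 36 h library. Peg10, Plagl1, Dlk1 and Ndn were at 0. Of 39 Hox genes 21 (53.8%) reached FPKM 1, a share near those 45.9%, and Hoxc10 (21.5 and 23.3), Hoxb9 (17.7 and 18.8) and Hoxb7 (9.98 and 12.6) were the 3 with a mean over 10.

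The genes that the study assayed by RT-PCR were looked up in the same libraries. Cyclin A and cyclin E, which the study names without a number, were each looked up as both of their genes. Of the 15 genes so listed 6 (40%) reached FPKM 1, against 45.9% of all protein-coding genes. Pcna, Ccna2 (47.3 and 51.5), Ccne1 (19.7 and 18.0), Sp1 (10.4 and 10.2) and Ccne2 (6.79 and 6.22) were among them, together with the reference gene Gapdh. Zbtb16, Ddx4, Dazl, Ccna1 and Magea4 were at 0, Prdm1 had 0 and 4 counts, and Gfra1, Kit and Tet1 stayed under FPKM 1. Of the enzymes of DNA methylation, chosen after values were seen, Uhrf1 (56.2 and 55.0) and Dnmt1 (34.4 and 36.1) were the highest. Tet2 stood at 0.242 and 0.300 and Tet3 at 0.705 and 2.23.

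Some genes of the interferon response were among the most abundant. Of 47 genes annotated to cellular response to interferon-beta 5 were among the 500. Defense response to virus was carried by 2.80% of the 500 and by 1.15% of the expressed genes. Type I interferons are secreted by cells that sense foreign nucleic acid, and through their receptor they activate transcription factors that bind the interferon-stimulated response element in the promoters of antiviral genes. The genes named here were chosen after their values were seen, and others looked up with them were lower, such as Ifitm1 (0.231 and 0.308) and Mx1 (15.9 and 4.01). Isg15, a ubiquitin-like modifier, stood at 894 in the MYC 24 h library and 502.4 in the MYC 36 h library. The tether Bst2, which holds budding virus at the cell surface, stood at 811 and 493. Cxcl10, a T cell chemokine, stood at 467 and 252. Ifit3, a partner of the RNA-binding Ifit1, stood at 413 and 102, and Ifit1 at 279 and 140. Rsad2, the antiviral enzyme viperin, stood at 151 and 64.2. Each of these 6 was lower in the MYC 36 h library. Oasl1, which restrains translation of Irf7, differed little, with 406 and 381, and B2m also, as given above.

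The windows below show the letters GAAANNGAAA, the core of the response element, in promoters of 7 of these genes. Each is 60 bases of RefSeq promoter sequence (GRCm38.p6), 5′ to 3′ on the strand of the gene, with 1 match in capitals, and a match in capitals that begins with T is on the other strand.
Isg15, chr4:156200850-156200909, minus strand: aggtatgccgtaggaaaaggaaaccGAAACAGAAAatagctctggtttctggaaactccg
Ifit1, chr19:34640779-34640838, plus strand: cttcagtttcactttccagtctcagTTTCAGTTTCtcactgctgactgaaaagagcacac
Ifit3, chr19:34583382-34583441, plus strand: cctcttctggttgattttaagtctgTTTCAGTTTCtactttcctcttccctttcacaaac
Cxcl10, chr5:92349068-92349127, minus strand: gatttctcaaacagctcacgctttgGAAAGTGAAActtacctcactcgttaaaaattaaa
Bst2, chr8:71537562-71537621, minus strand: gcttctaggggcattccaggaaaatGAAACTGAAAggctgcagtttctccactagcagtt
Rsad2, chr12:26456538-26456597, minus strand: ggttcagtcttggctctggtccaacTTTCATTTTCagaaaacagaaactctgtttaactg
B2m, chr2:122147523-122147582, plus strand: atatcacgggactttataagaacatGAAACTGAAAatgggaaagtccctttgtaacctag
In the 250 bases searched Isg15 held 3 matches and Ifit1, Ifit3 and Bst2 held 2 each, overlaps included, and only the match whose distance is given is capitalised in full. The match in capitals ended 57 bases before the start in Isg15, 76 in Ifit1, 113 in Ifit3, 204 in Cxcl10, 115 in Bst2, 111 in Rsad2 and 130 in B2m. These letters were not in the 250 bases before Irf7, Oasl1 or Ifitm3. Over all 32851 RefSeq promoters 2.98% held a match on either strand, and 2.72% of those of expressed genes did. Among 36 promoters of expressed genes annotated to the cellular response to interferon-beta the share was 44.4%. A match is a description of letters and not a bound site.

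Annotated sets were read as well, and these too were chosen after the values were seen. Of 47 genes annotated to cellular response to interferon-beta 38 (80.9%) had a mean FPKM of at least 1, against 45.9% of all protein-coding genes, and 28 had at least 10. Of the wider term defense response to virus 115 of 195 had a mean FPKM of at least 1. The 39 interferon-beta genes with FPKM of at least 1 in either library were compared between the 2 MYC libraries as log2 ratios with a pseudocount of 0.1. In this comparison, 17 were at least 2-fold lower at 36 h, where the background over all 10187 protein-coding genes compared was 1.68%. Of these 17 genes 4, Ifnb1, Gm12185, Gm5431 and Ifi207, had an FPKM of at least 1 at 24 h only and so could enter only through the library in which they were high. Among the 34 genes with FPKM of at least 1 in both libraries 13 were at least 2-fold lower, against 1.14% of all genes so chosen. Of the 39 genes 2, Ube2g2 and Gbp6, were at least 2-fold higher, of which Gbp6 had an FPKM of at least 1 at 36 h only, and 2.76% of all genes compared differed at least 2-fold in either direction. The median log2 ratio of the 39 genes was -0.92 and that of all genes compared was 0.02. The wider term showed less. Of its 116 genes compared with the same filter, 17 (15.5%) were at least 2-fold lower at 36 h and 1 was higher, with a median of -0.14. Beside the Ifit genes, Iigp1 (7.41 and 1.74), Trex1 (27.3 and 9.65), Irf1 (51.8 and 22.2) and the GTPase Gbp2 (141 and 66.9) were lower at 36 h. Some rows of the interferon-beta set share sequence or position with others. Ifit3 is near-identical to Ifit3b, which the set does not hold, Tgtp1 and Tgtp2 are paralogs, and Igtp overlaps Irgm2.

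The same 39 genes were read in the libraries of the TET1 overexpression group, which share no sample with the MYC libraries. There 31 of 39 had a lower FPKM at 36 h than at 24 h, against 45.7% of all genes compared. At least 2-fold lower were 7, against a background of 1.16%, and 1 was at least 2-fold higher, against 0.893%, with a median log2 ratio of -0.63, where the median over all genes compared was 0.02. Isg15 stood at 871 and 598 and Ifit3 at 407 and 156. In both pairs of libraries the later one was therefore lower, and the size was not compared by any test.

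Transcripts of the interferons themselves were low. Ifnb1, the interferon-beta gene, had 65 counts (50.2 to 82.8) at 24 h and 12 (6.20 to 21.0) at 36 h. Ifna4 had 4 and 0, Ifng 3 and 0, and Ifna2 was at 0. The receptor chains Ifnar1 (8.94 and 10.6) and Ifnar2 (18.4 and 18.7) were present in both libraries. Of the sensors, Zbp1 stood at 96.8 and 52.9, the RNA sensor Ddx58 (RIG-I) at 43.7 and 29.3 and Ifih1 at 24.8 and 14.3. Tmem173 (STING) stood at 18.4 and 19.9, and Cgas, which makes its second messenger on DNA, at 0.541 and 0.361. Of the chemokines, Ccl5 differed little between the libraries, at 1107 and 1159. Ccl2 had 42211 and 28267 counts. In FPKM, Ccl7 stood at 164 and 119 and Cxcl1 at 167 and 124. Beside them, 2 of the 11 macrophage markers, Cd14 and Cd68, reached FPKM 1, the list summed to an FPKM of 37.0 and 34.3, and the defining Ptprc, Adgre1 and C1qa were at 0. The part of such cells in these levels was not tested.

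Antigen presentation genes split by member. B2m and the heavy chains H2-K1 (83.8 and 77.7) and H2-D1 (66.5 and 58.9) differed by less than 1.5-fold. The peptide transporter Tap1 (23.2 and 6.07) and the immunoproteasome subunits Psmb8 (68.5 and 28.5), Psmb10 (103 and 33.7) and Psmb9 (3.07 and 0.530) were lower at 36 h. The MHC class II gene H2-Aa had 23 and 16 counts, and Ciita, the activator of class II genes, was at 0.

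**Figure D4:**
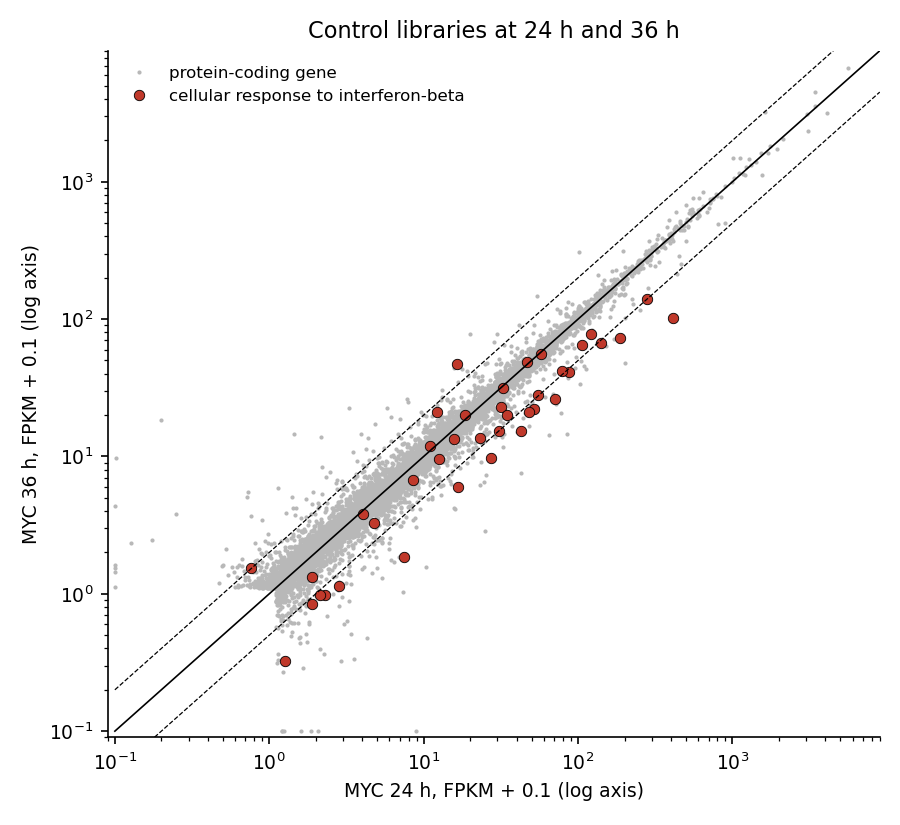
FPKM plus 0.1 of the 10187 protein-coding genes compared in the MYC 24 h library (horizontal, log axis) and the MYC 36 h library (vertical, log axis), with equality as the solid line and 2-fold as dashed lines. The 39 genes annotated to cellular response to interferon-beta are the filled circles, of which 17 lie on or under the lower dashed line.

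The 2 libraries were otherwise alike. Of 10187 genes compared, 92.9% differed by less than 1.5-fold. At least 2-fold different were 281, with 110 higher and 171 lower at 36 h. Of the 110 genes 46 passed FPKM 1 at 36 h only, and of the 171 genes 59 did so at 24 h only. With FPKM of at least 1 in both libraries 176 differed this much, with 64 higher and 112 lower. Of the 500 most abundant genes 10 differed this much. Among genes with a mean FPKM of at least 10, the 5 with the largest lower value at 36 h were Itprip (24.9 and 2.76), Nfe2l1 (85.2 and 14.4), Srxn1 (42.9 and 7.54), Sumo2 (64.6 and 14.2) and Ifit3b (202 and 47.9). Nfe2l1 drives proteasome genes and Srxn1 repairs oxidised peroxiredoxin. The 5 with the largest higher value were Eif3j2 (3.18 and 22.3), Gapdh (19.8 and 78.1), Retreg3 (5.68 and 22.5), Ccdc85b (4.72 and 17.2) and Lrrc47 (7.75 and 25.9).

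Gapdh stood out as the reference gene of the study's RT-PCR and as a glycolytic enzyme that ranked far under its neighbours in the pathway. Its row held 6076 counts at 24 h and 21642 at 36 h. Rows of 80 other genes whose transcripts match it at 95% identity or more over at least 50% of their length held 253298 and 249652, which is 97.7% and 92.0% of the sum. The largest was the processed pseudogene Gm13394 with 85031 and 88517. On its own row Gapdh stood at 91.0 and 357 CPM, a log2 ratio of 1.97. With these rows added it stood at 3883 and 4476, a log2 ratio of 0.21. In the MYC-TET1 libraries its row stood at FPKM 22.2 and 95.3. Both the level of Gapdh and its difference between the libraries thus depended on whether these rows were counted with it.

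Other abundant genes were touched in the same way. Rpl21 had 166 and 168 counts of its own while 62 near-identical rows held 63607 and 54077. Rpl29 had 555 and 598 while 34 such rows held 36166 and 34202, and Rplp0 shared 50.6% and 49.7% of its sum. Of the mitochondrial genes, mt-Co2 shared 49.9% and 44.4% of its sum with nuclear copies and mt-Co1 15.8% and 13.9%. For mt-Atp6 the copy Gm10925 held 23089 counts at 24 h and 111759 at 36 h. With it mt-Atp6 stood at 3470 and 4225 CPM, so its direction turned and it was higher at 36 h. No such row was found for mt-Atp8, mt-Nd1 or mt-Cytb, nor for Lgals1, Hsp90ab1, Ccl5, Ifitm3, Vim, Col1a1 or Wt1.

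**Figure D5:**
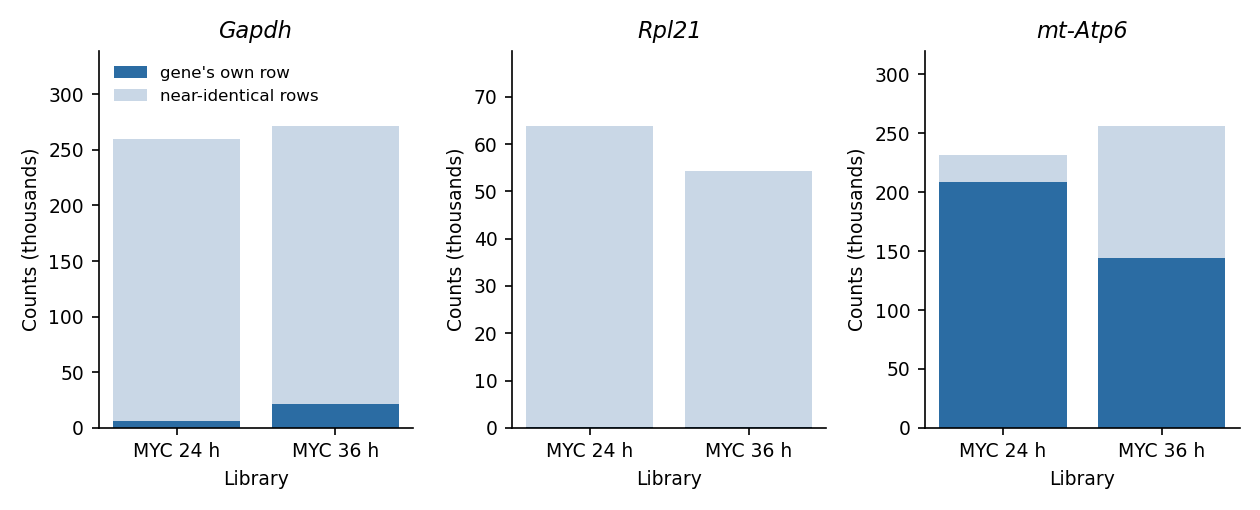
Counts (axis in units of 1000) of the rows of Gapdh, Rpl21 and mt-Atp6 (dark) and of rows of near-identical transcripts (light, stacked on top) in each MYC library. The dark part is 6076 and 21642 counts for Gapdh, too small to see for Rpl21 with 166 and 168, and lower at 36 h for mt-Atp6 although its stacked bar is higher there.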

How the data were processed

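The authors deposited 1 table with, for each gene and library, a read count (whole numbers, not normalized by the authors) and an FPKM value (fragments per kilobase scaled to library size, computed by the authors from those reads), with gene positions, transcript types, GO and KEGG terms. The submitters' processing notes name Bowtie 0.12.2 and the builds mm8 and mm9 without a role. However, GENCODE for GRCm38 listed 99.6% of the identifiers, and for 94.3% of those it gave identical coordinates. The counting tool and its use of strand are not given in the sources used here.

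Each library was mapped to its condition by its title. The 2 MYC libraries (total counts 66797452 and 60611877) were averaged without weighting. A gene was protein-coding when any listed transcript type was protein_coding. Levels were counted at mean FPKM of 1, 10 and 100. Differences between libraries were log2 ratios with a pseudocount of 0.1, which understates low genes, over genes at FPKM 1 in either library, and 2-fold was the threshold. With 1 library per condition no p-value was computed.

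Named were the 20 highest genes, ranks 499 to 502, defining markers and markers at mean FPKM of 10, the extreme members of function lists, the RT-PCR genes, the 10 most frequent GO terms and KEGG pathways, and the 5 highest and 5 lowest library differences. The table does not mark GO aspects, so terms were ranked together. The members and lists were chosen with earlier results of these data known. Near-identical rows were found with blastn 2.17.0 on GENCODE transcripts (95% identity, 50% of the copy), and protein sequences were not analysed here. Some genes of the lists are counted but not reported here by name. The 2-fold and level rules were run on Poisson counts simulated from the MYC 24 h library with changes planted. Such counts hold no variation between libraries and no reads lost to near-identical rows, so they do not vouch for the 2-fold calls. Python 3.11.15, pandas 2.3.3, numpy 2.4.6, scipy 1.17.1 and matplotlib 3.10.9 were used. Alternatives were each library alone, both libraries required, TPM, summed gene names, other transcript types, other thresholds and pseudocounts, scaled counts, and 200 or 1000 genes in place of 500.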

Additional observations from a re-analysis of the deposited data

Results flagged for a closer look

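The comparisons above used protein-coding genes. Outside them, 105 genes with no protein_coding transcript type had a mean FPKM of at least 100 in the MYC libraries. Rows of a pseudogene type held 3.91% of counts at 24 h and 4.11% at 36 h. These rows lie outside the protein-coding measurement, their counts exceed the limit of 3 that a count of 0 allows, and there is no control sample for them. The highest of these rows were the small Gm27597 (4304 and 4643) and Gm22133 (4144 and 4797), of miRNA type, and the unprocessed pseudogenes Gm28661 (3404 and 3597) and Gm29216 (3273 and 3370), which are the near-identical rows of mt-Co2 and mt-Co1. Of the rows at FPKM 100 or more, 92 were of a pseudogene type.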

How the results depend on the processing

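Each library alone, both libraries required and summed gene names left the counts of expressed genes and of markers within 1.5 times, as did genes of every transcript type for the expressed genes. FPKM summed to 350600 and 355600, so TPM values were 2.85 and 2.81 times higher, and in TPM 7500 genes reached 10 and 1435 reached 100. With protein_coding as the only transcript type, an alternative chosen after seeing the data, 1930, 890 and 125 genes reached 1, 10 and 100. At a threshold of 0.1 there were 20 germ cell and 11 peritubular markers, and with at least 10 counts in both libraries 23 germ cell, 7 Leydig and 11 peritubular ones. At FPKM 10 there were 3 germ cell, 6 Sertoli, 1 Leydig and 10 fibroblast markers. The share of the 500 most abundant genes was 53.97% at 36 h, 38.45% by counts and 49.58% without mitochondrial genes. The number of genes 2-fold different was 154 with a pseudocount of 1, 650 without a filter, 81 at mean FPKM of at least 10 and, in a choice added after seeing the data, 176 with FPKM of at least 1 in both libraries. By counts scaled by library total, also added later, 19 interferon-beta genes differed, as before, and with FPKM of at least 1 in both libraries 14 did. Translation was annotated for 30.5% of the top 200, 12.3% of the top 1000 and 6.60% of the 500 genes left without ribosomal protein genes, and the KEGG Ribosome pathway for 31.5%, 12.4% and 1.72%. Gapdh stood at 224 CPM on its row and at 4180 with its copies, a choice added after the data were seen. The median coding length was 726 bases in the top 200 and 888 in the top 1000, and the promoter shares stayed within their counting intervals under these choices. In all, 64 of 92 alternatives stayed within 1.5 times the count, or within the interval or library spread of a share. No paired analysis was possible because the MYC libraries compared share fewer than 2 replicate numbers, with 1 library at each time, and the results come from no test. Depth limits a gene at 0 to 3 counts, and single libraries leave every difference without a replicate.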

Other observations

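The most abundant genes were not spread over the chromosomes as expressed genes were. Chromosome 11 held 76 of the 500 most abundant genes (15.2%) and 9.10% of the protein-coding genes at mean FPKM of at least 1, and chromosome 15 held 43 (8.60%) and 4.24%. Chromosomes 1 and 9 held 16 each (3.20%), and 5.57% of expressed genes each. These genes include the ribosomal protein gene Rpl19, Krt19, Ccl5 and Ubb on chromosome 11 and Lgals1, Krt18 and Tuba1b on chromosome 15. The shares were read after the values were seen and were not tested.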
